A study of Mus musculus with 4 samples.

Results

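Mef2D regions that lie in dense runs along the genome were described here in differentiated C2C12, a line of mouse myoblasts that forms multinucleate myotubes in culture. The members were chosen by position alone. Rows of the authors' combined table of Mef2D regions were sorted along each chromosome, with chromosome 15 left out, and a row was joined to the previous one when the gap between them was at most 12.5 kb. Rows in runs of 4 or more were kept and are called clustered regions, and each run is called a cluster. This gave 3173 clustered regions in 627 clusters, out of 19749 regions in the table and 18297 outside chromosome 15. They were compared with the 8890 regions that had no neighbour within that distance, called lone regions.

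The cells were taken through 5 days of differentiation in medium with horse serum, insulin and transferrin. Chromatin immunoprecipitation followed by sequencing was done with 1 antibody against Mef2Da1 and 1 against Mef2Da2, both made against isoform peptides, and with each antibody blocked by its own peptide (Mef2Da1-BLOCK and Mef2Da2-BLOCK). Each of these 4 groups had 1 library from unmodified cells of 1 line, so no value below has a replicate error, no difference was tested, and sequencing depth was not known. Values are coverage heights, the highest read pile-up in a region as the authors deposited it, an integer with no correction for depth.

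Mef2D is a MADS-box transcription factor that binds A/T-rich elements near muscle genes and acts together with the MyoD family during myotube formation. Its isoforms Mef2Da1 and Mef2Da2 differ by the choice of 1 of 2 alternative exons, and the Mef2Da2 exon is used in differentiating muscle. Sites of such factors are not spread evenly, and regulatory domains of highly expressed lineage genes often hold several bound elements within a short stretch of DNA. Joining elements over the distance used here is a common step when such domains are defined. Coordinates are of the mouse build mm9 as given in the table, no gene annotation or genome of that build was used here, and no region was assigned to a gene.

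Clusters made up a modest part of the table. Of the regions outside chromosome 15, 17.3% were clustered and 48.6% were lone. Most clusters were small: 318 had 4 regions, 150 had 5, 74 had 6 and 85 had 7 or more, and 18 held at least 10. A cluster had a median length of 19110 bp (quartiles 13455.5 and 26080, range 2926 to 60248), and the regions themselves covered a median of 17.7% of that length. Within clusters the median gap was 3241 bp (quartiles 983 and 6809), so most neighbours were much closer than the rule required. In 440 of 2546 gaps (17.3%) neighbours were less than 500 bp apart, and in 125 less than 100 bp. With regions under 500 bp apart joined first, 2281 clustered regions in 465 clusters were left.

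**Figure D1:**
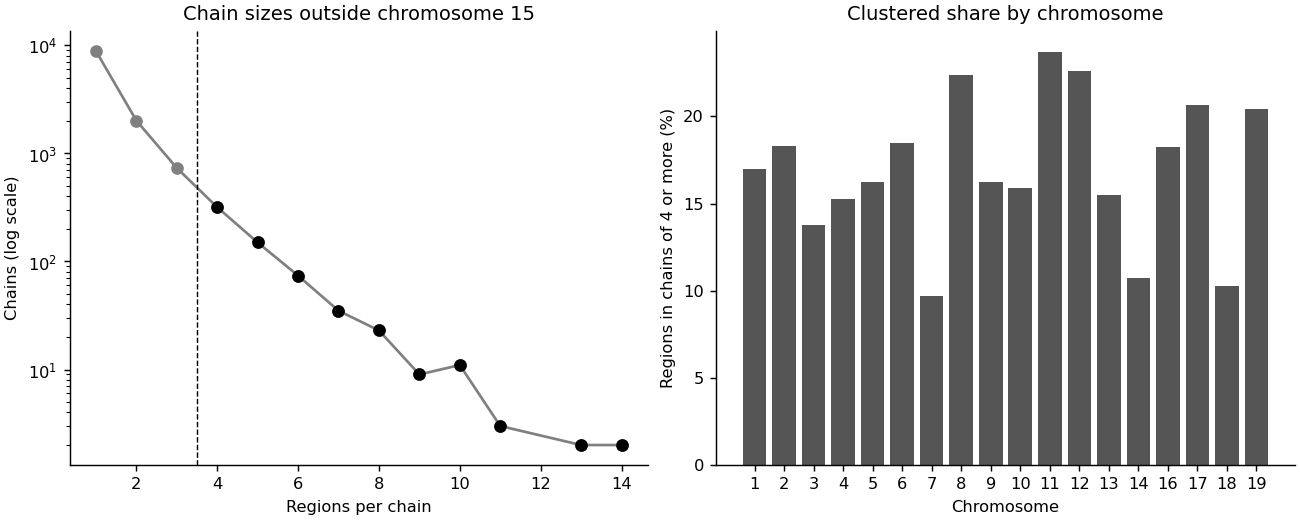
Left, the number of chains (log scale) against the number of regions in the chain, with the kept chains in black to the right of the dashed line. Right, the percentage of each chromosome's regions that were clustered, from 9.67% on chromosome 7 to 23.7% on chromosome 11.

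The clustered share differed between chromosomes. It was highest on chromosomes 11 (23.7%, 349 regions in 72 clusters), 12 (22.6%, 177 regions in 35) and 8 (22.4%, 267 regions in 48). It was lowest on chromosomes 7 (9.67%, 83 regions in 17), 18 (10.3%, 69 in 13) and 14 (10.7%, 69 in 14). Chromosome 11 was also the densest of these 18 chromosomes, with 12.4 regions per Mb, whereas chromosome 12 reached nearly the same clustered share with 6.66 regions per Mb. A high share was thus found with and without a high overall density.

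Regions just inside and just outside the cutoffs of the rule were as follows. The 3 gaps just inside 12.5 kb measured 12479, 12481 and 12498 bp, and the 3 just outside 12506, 12509 and 12510 bp. The 3 regions after the inner gaps had Mef2Da1 heights of 44, 38 and 29, and those after the outer gaps 34, 111 and 25. The region with 111, at chromosome 1, 165165376 to 165166447, also had a Mef2Da2 height of 247 and counted as lone. The 734 chains of 3 regions, just below the size limit, had a median height of 45 for Mef2Da1 and 39 for Mef2Da2, the same medians as the clusters.

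Clustered regions were only slightly taller than lone ones. The median Mef2Da1 height was 45 in clustered regions (95% interval 44 to 45, from order statistics) and 42 in lone regions (42 to 42). For Mef2Da2 it was 39 (38 to 39) and 36 (36 to 36). The quartiles overlapped widely, at 36 and 60 against 34 and 52 for Mef2Da1 and at 29 and 60 against 27 and 52 for Mef2Da2. These intervals and those below cover counting error only and treat regions as independent, which regions of 1 cluster are not.

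The upper tail differed more than the middle. In the tallest 10% of regions Mef2Da1 exceeded 85 in clusters and 69 among lone regions, and Mef2Da2 exceeded 98 and 82. Both isoforms reached a height of 100 in 133 of 3173 clustered regions (4.19%, exact Clopper-Pearson 95% interval 3.52 to 4.95), in 213 of 8890 lone regions (2.40%, 2.09 to 2.74) and in 3.02% of the whole table. The blocked controls were higher in clusters too. The median of Mef2Da1-BLOCK was 19 in clustered and 18 in lone regions, and that of Mef2Da2-BLOCK 13 and 11. Mef2Da1 medians were higher in clustered regions on 17 of 18 chromosomes and equal on 1, those of Mef2Da2 higher on 15 and lower on 1, and those of Mef2Da2-BLOCK higher on 17.

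**Figure D2:**
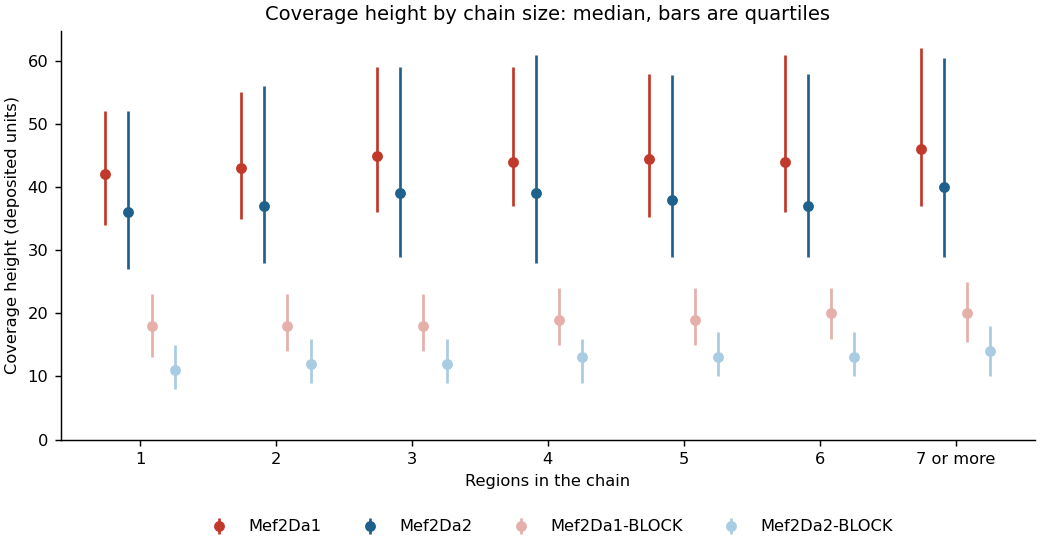
Coverage height in deposited units against the number of regions in the chain, with 1 point per library for the median and bars for the quartiles. From chains of 1 to chains of 7 or more the Mef2Da1 median goes from 42 to 46 and that of Mef2Da2-BLOCK from 11 to 14.

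Height also went with the width of a region, and clustered regions were wider as well. Their median width was 620 bp against 521.5 bp for lone regions, and it was larger on 18 of 18 chromosomes. The regions outside chromosome 15 were cut into 4 width classes of equal size. Of the clustered regions 35.2% fell in the widest class (over 757 bp), against 20.5% of the lone regions. Within the narrowest class (up to 422 bp) the median heights of Mef2Da1 were 36 in both groups, and those of Mef2Da2 were 31 in clustered and 34 in lone regions. In the widest class they were 54 and 49 for Mef2Da1 and 48 and 37 for Mef2Da2. The part of width in these differences was not tested. The blocked medians in that class were 22 in both groups for Mef2Da1-BLOCK, and 16 in clustered and 15 in lone regions for Mef2Da2-BLOCK.

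Relative to the blocked antibody, clustered regions were close to lone ones. Mef2Da1 was at least 2-fold above its blocked control, unscaled and with a pseudocount of 1, in 2096 of 3173 clustered regions (66.1%, 64.4 to 67.7), against 64.7% of the whole table and 64.4% (63.4 to 65.4) of lone regions. For Mef2Da2 it was 2430 of 3173 (76.6%, 75.1 to 78.0), against 75.0% of the whole table and 74.4% (73.5 to 75.3) of lone regions. These shares lay near the background of the table, so they are not a result about clusters. With each library scaled to its total over the table, they were 7.78% in clustered and 8.49% in lone regions for Mef2Da1 and 13.6% and 17.4% for Mef2Da2, the opposite order, with 7.98% and 15.8% over the whole table. Median scaling gave 9.77% and 10.1% for Mef2Da1 (9.75% of the table) and 18.4% and 21.6% for Mef2Da2 (20.1%). A pseudocount of 5 without scaling gave 57.3% and 53.6% (54.4% of the table) and 68.8% and 67.5% (67.6%). The median log2 ratio to the blocked control was 1.23 in clustered and 1.18 in lone regions for Mef2Da1 and 1.585 and 1.67 for Mef2Da2, so for Mef2Da2 the median and the 2-fold share differed in direction.

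Clusters held regions with peaks of both isoforms more often. The authors also deposited 1 peak list per isoform, and a region was counted as having a peak where it shared at least 1 bp with a listed one. Listed peaks of both isoforms were found in 1046 of 3173 clustered regions (33.0%, 31.3 to 34.6), against 26.6% of the whole table and 1987 of 8890 lone regions (22.4%, 21.5 to 23.2). The clustered share was above the lone share on 18 of 18 chromosomes. A −log10 p of 6 or more was given for Mef2Da1 in 45.8% of clustered and 36.1% of lone regions (40.5% of the table), and for Mef2Da2 in 49.0% and 44.3% (46.1%). A −log10 p of 6 or more in both isoforms was reached in 33.2% of clustered, 22.0% of lone and 26.5% of all regions.

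Regions with a peak of 1 isoform were fewer in clusters. A Mef2Da1 peak only was found in 13.4% of clustered regions (12.2 to 14.6), 15.8% of lone regions (15.1 to 16.6) and 15.2% of the table. A Mef2Da2 peak only was found in 16.4% (15.1 to 17.7), 22.7% (21.9 to 23.6) and 20.1%. No listed peak was found in 37.3% (35.6 to 39.0), 39.1% (38.1 to 40.1) and 38.1%, which is close to the table as a whole. The step was reached in small chains: the share with peaks of both was 27.7% in chains of 2 and 33.0% in chains of 3, and between 32.4% and 33.2% in chains of 4, 5, 6 and 7 or more.

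The excess of shared peaks lay mainly in wide regions. In the narrowest width class, 8.65% of clustered and 8.16% of lone regions had peaks of both isoforms. In the second class the shares were 23.3% and 22.7%, and in the third 32.5% and 27.9%. In the widest class they were 51.7% and 35.5%. In the widest class the unscaled 2-fold shares over the blocked controls were 68.9% of clustered and 61.6% of lone regions for Mef2Da1. For Mef2Da2 they were 76.1% and 62.2%. The third class had the same order, at 67.7% and 63.1% for Mef2Da1 and 76.1% and 71.2% for Mef2Da2. The order was opposite in the narrowest class (60.0% and 65.2%, and 77.2% and 81.8%) and in the second (64.5% and 67.0%, and 77.4% and 78.7%). Over the whole table the shares were 64.7% and 75.0%. Clustered regions of the widest class were still wider, with a median of 1005 bp against 927 bp.

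**Figure D3:**
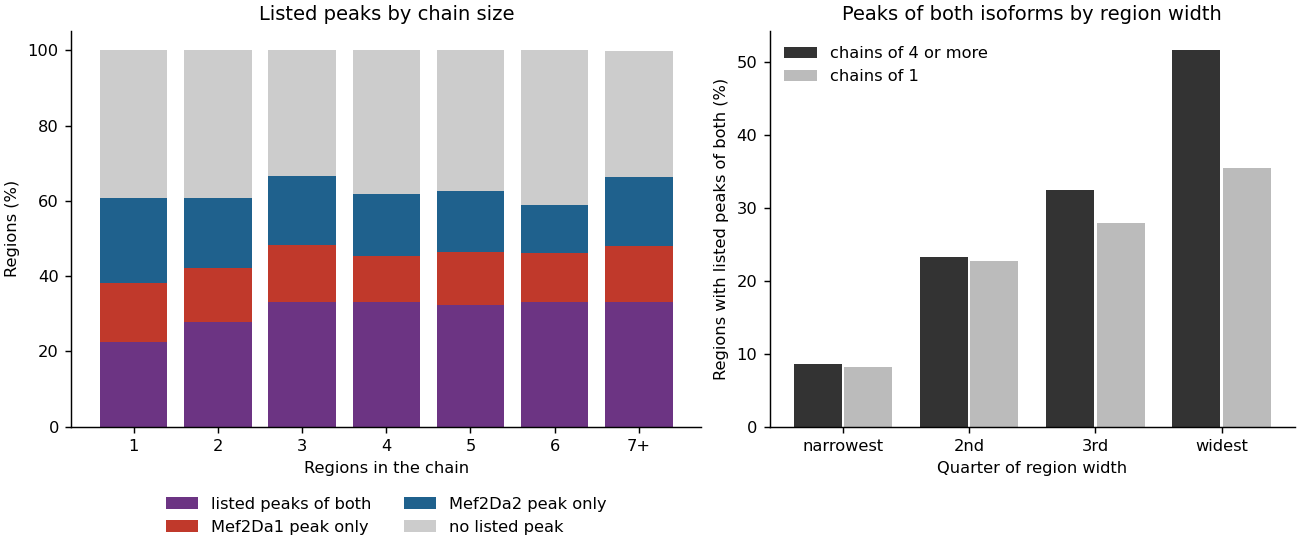
Left, the percentage of regions by listed peaks (both isoforms, Mef2Da1 or Mef2Da2 alone, none) and by the number of regions in the chain. Right, the percentage with peaks of both in each of 4 width classes, for clustered (dark) and lone (light) regions, with 51.7% and 35.5% in the widest.

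Listed peaks were found in most clusters but seldom in every region of one. A Mef2Da1 peak was present in 583 of 627 clusters, a Mef2Da2 peak in 590, and a region with peaks of both in 518, while 12 clusters had no listed peak at all. Few clusters were filled with peaks. In 66 clusters every region held a listed peak of some isoform, and in 7 every region held peaks of both. At least 4 regions with a Mef2Da1 peak were found in 117 clusters, at least 4 with a Mef2Da2 peak in 136, and both conditions held in 73. Most clusters thus mixed regions with and without a listed peak. Over single clustered regions, 37.3% held no listed peak and 33.0% held peaks of both (38.1% and 26.6% of the table). Whether the cluster counts differ from what these shares alone would give was not tested. Regions at the ends of a cluster held listed peaks slightly less often than those inside it. Peaks of both were found in 30.9% of 1254 end regions and 34.3% of 1919 inner regions, and no listed peak in 39.9% and 35.6%. Median heights were 44 and 45 for Mef2Da1 and 37 and 39 for Mef2Da2, and median widths 597 and 638 bp.

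Height varied more among the regions of a cluster than between clusters. Of the variance of log2 height among clustered regions, 2.20% lay between clusters for Mef2Da1 and 4.80% for Mef2Da2 (intraclass correlation as a percentage). For the blocked controls it was 7.50% and 7.80%. The SD between regions of 1 cluster was 0.61 on the log2 scale for Mef2Da1 and 0.81 for Mef2Da2. The observed cluster means of log2 height had an SD of 0.29 and 0.42, and the part left after the spread within clusters was taken out, which underlies the shares above, was 0.09 and 0.18. Regions of 1 cluster were thus little more alike in height than regions of different clusters, while blocked coverage was somewhat more alike within a cluster.

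A single region stood well above the others in a minority of clusters. The tallest region of a cluster was a median of 1.27 times as high as the next one for Mef2Da1 and 1.48 times for Mef2Da2, against 1.17 and 1.19 for the blocked controls. It was at least 2-fold above the next in 76 of 627 clusters (12.1%) for Mef2Da1 and 163 (26.0%) for Mef2Da2. For Mef2Da1-BLOCK this was so in 10 (1.6%) and for Mef2Da2-BLOCK in 21 (3.3%). From lowest to tallest, heights differed by a median of 2.38 times for Mef2Da1 and 3.32 times for Mef2Da2. A height of 100 was reached by Mef2Da1 in 158 clusters, by Mef2Da2 in 236 and by both in 127. Of single regions, 4.19% in clusters and 3.02% in the whole table had both isoforms at 100 or more. Whether the cluster counts differ from what shares of single regions alone would give was not tested. Heights were not corrected for depth, so the counts of the isoforms cannot be set against each other.

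The isoforms mostly peaked in the same region. Among 603 clusters with no tie for the tallest, Mef2Da1 and Mef2Da2 were tallest in the same region in 356 (59.0%, 55.0 to 63.0). The share was 60.5% in clusters of 4 and 53.1% in clusters of 7 or more. Mef2Da1 and its blocked control shared the tallest region in 33.3% (29.4 to 37.3) of 577 untied clusters. Mef2Da2 and its blocked control did so in 25.2% (21.7 to 29.0) of 559. The 2 blocked controls did so in 36.3% (32.2 to 40.6) of 534. The region in which an isoform was tallest was therefore more often that of the other isoform than that of its own blocked control.

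The same holds over all regions as a description. Deviations of log2 height from the mean of the cluster had a Pearson correlation of 0.60 between Mef2Da1 and Mef2Da2 over 3173 regions. It was 0.33 between Mef2Da1 and its blocked control and 0.12 between Mef2Da2 and its own. The means of 627 clusters correlated at 0.53 between the isoforms. Heights of Mef2Da1 and Mef2Da2 had a Spearman correlation of 0.48 over clustered and 0.18 over 8890 lone regions. Regions of 1 library share its depth and antibody, and in every region of the table the −log10 p of the isoforms summed to at least 6.06, so these coefficients describe the table and carry no test.

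**Figure D4:**
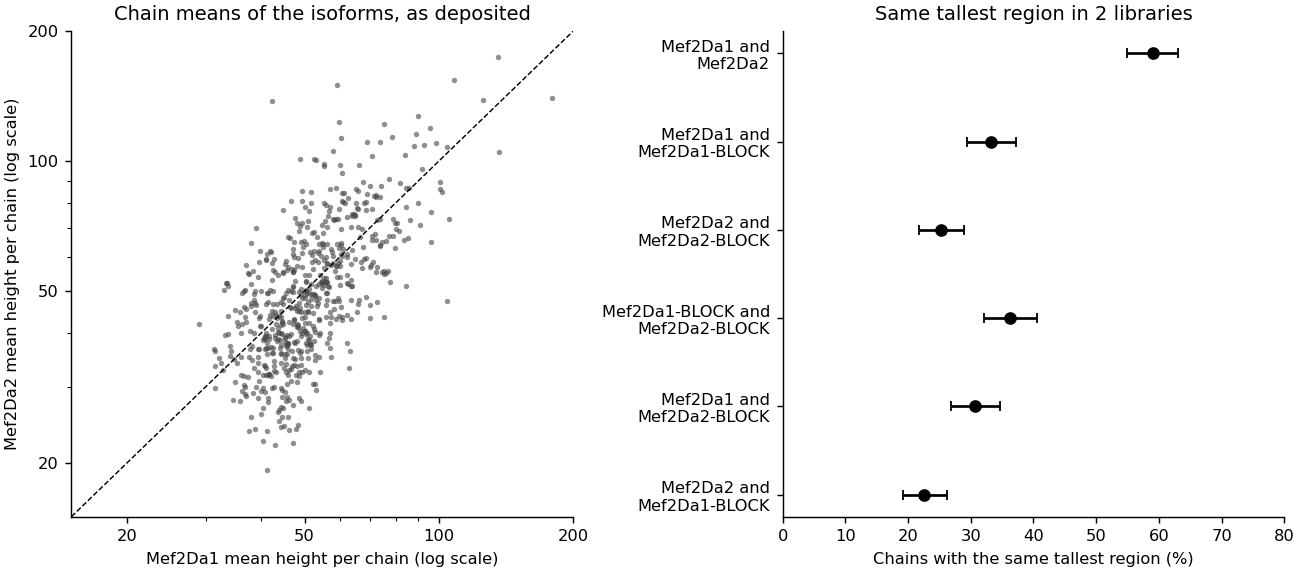
Left, the mean height of Mef2Da2 against that of Mef2Da1 for each of 627 clusters (both log scales, as deposited, dashed line at equal height). Right, the percentage of untied clusters in which 2 libraries were tallest in the same region, with exact 95% intervals; the isoform pair stands at 59.0% and every other pair at or below 36.3%.

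The balance of the isoforms was about the same in clusters as outside them. Scaled to the totals over the table, the median log2 ratio of Mef2Da1 to Mef2Da2 was 0.15 in clustered and 0.16 in lone regions. With median scaling both were −0.01, and with scaling to the totals of the blocked controls −0.42 and −0.41. Summed over a cluster, the isoforms lay within 2-fold of each other in 620 of 627 clusters, with Mef2Da1 higher by more in 3 and Mef2Da2 in 4. These counts moved with the scaling: median scaling gave 0 toward Mef2Da1 and 11 toward Mef2Da2, and blocked totals gave 0 and 80. Single regions differed more often. With total scaling, Mef2Da1 was over 2-fold higher in 261 clustered regions (8.23%, 7.29 to 9.24), against 9.62% of the table and 10.8% of lone regions. Mef2Da2 was over 2-fold higher in 189 (5.96%, 5.16 to 6.84), against 7.03% of the table and 8.05% of lone regions. With median scaling the shares were 4.88% of clustered and 7.09% of lone regions toward Mef2Da1 (6.13% of the table), and 8.57% and 10.9% toward Mef2Da2 (9.71%). With blocked totals they were 1.39% and 1.87% toward Mef2Da1 (1.71%), and 18.4% and 21.8% toward Mef2Da2 (20.2%). The clustered share was below the lone share in each direction under all 3 scalings, whereas the isoform with more such regions changed.

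Isoform ratios varied more between regions of a cluster than between clusters. Of the variance of the log2 ratio with total scaling, 7.37% lay between clusters. In 34 clusters 1 region was over 2-fold toward Mef2Da1 and another over 2-fold toward Mef2Da2. In 284 clusters every region stayed within 2-fold. Of single regions, 85.8% in clusters and 83.4% in the whole table stayed within 2-fold. Whether the cluster counts differ from what this share alone would give was not tested. The ratios of adjacent regions correlated at 0.19 over 440 pairs less than 500 bp apart and at 0.02 over 939 pairs at 5000 bp or more. Nearness within a cluster thus went with little likeness in isoform preference, beyond the closest pairs. Both neighbours held peaks of both isoforms in 12.3% of the closest pairs (9.36 to 15.7) and 14.0% of the farthest (11.8 to 16.3). At 500 to 2000 bp the share was 9.90% and at 2000 to 5000 bp 12.3%, so it showed no steady change with distance. Of single regions, 33.0% in clusters and 26.6% in the whole table held peaks of both. Whether the shares of pairs differ from what the share of single regions alone would give was not tested.

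The clusters with the most regions show how this looked along the genome. At chromosome 2, 180088071 to 180135688, 14 regions were listed. The 5 tall ones reached 89, 65, 185, 78 and 87 with the Mef2Da1 antibody. In the same order Mef2Da2 reached 114, 66, 179, 107 and 93. Each of these held peaks of both isoforms. The other 9 had no listed peak and stood at 20 to 47 for Mef2Da1 and 10 to 36 for Mef2Da2. Both isoforms were thus high in the same regions, while Mef2Da1-BLOCK stayed between 11 and 35 and Mef2Da2-BLOCK between 7 and 29.

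The other cluster with 14 regions, at chromosome 2, 163170686 to 163224341, was flatter. Its mean heights were 50.9 (Mef2Da1) and 47.3 (Mef2Da2), with blocked means of 20.9 and 15.3, and its tallest region had 94 and 112. It held 5 regions with peaks of both isoforms and 6 with a peak of 1. At chromosome 2, 173081961 to 173134514, 13 regions had means of 58.0 and 47.4 against 22.0 and 16.7, and a tallest Mef2Da1 height of 111. At chromosome 10, 79603997 to 79631236, 13 regions had lower means of 43.5 and 38.7 against 23.8 and 17.5, and Mef2Da1 reached 67 at most. These 4 clusters of similar size thus differed in their mean heights.

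Another 3 clusters had 11 regions. The one at chromosome 2, 60526955 to 60561667, was the tallest of these, with means of 72.0 (Mef2Da1) and 67.8 (Mef2Da2) over blocked means of 20.8 and 12.9. Tall and low regions were mixed there and alternated toward the end. The Mef2Da2 heights ran 93, 35, 37, 57, 50, 24, 134, 24, 184, 30 and 78. At chromosome 14, 26295377 to 26347208, the means were 56.2 and 49.5. A single region there had a Mef2Da1 height of 30 and the Mef2Da2 maximum of 144 (blocked 12 and 13), while the Mef2Da1 maximum of 120 lay elsewhere. At chromosome 10, 80630311 to 80665765, the means were 51.7 and 51.9, and 2 regions with Mef2Da2 heights of 109 and 156 held the peaks of both isoforms.

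Among clusters of 10 regions, the 3 with the highest summed height each had a region well above the rest in at least 1 isoform. At chromosome 10, 80204747 to 80239616, the isoforms reached 214 (Mef2Da1) and 469 (Mef2Da2) with blocked heights of 17 and 20, and another region had 42 and 136 with a Mef2Da2 peak only. At chromosome 8, 87233035 to 87267905, 1 region reached 314 and 255 against 33 and 25, and the other 9 had Mef2Da1 heights of 35 to 88. Blocked coverage was high across that cluster, with means of 31.7 and 20.5, and 2 of 10 regions were at least 2-fold above Mef2Da1-BLOCK. At chromosome 11, 80297952 to 80335127, the tallest region had 220 and 132 against 31 and 19.

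**Figure D5:**
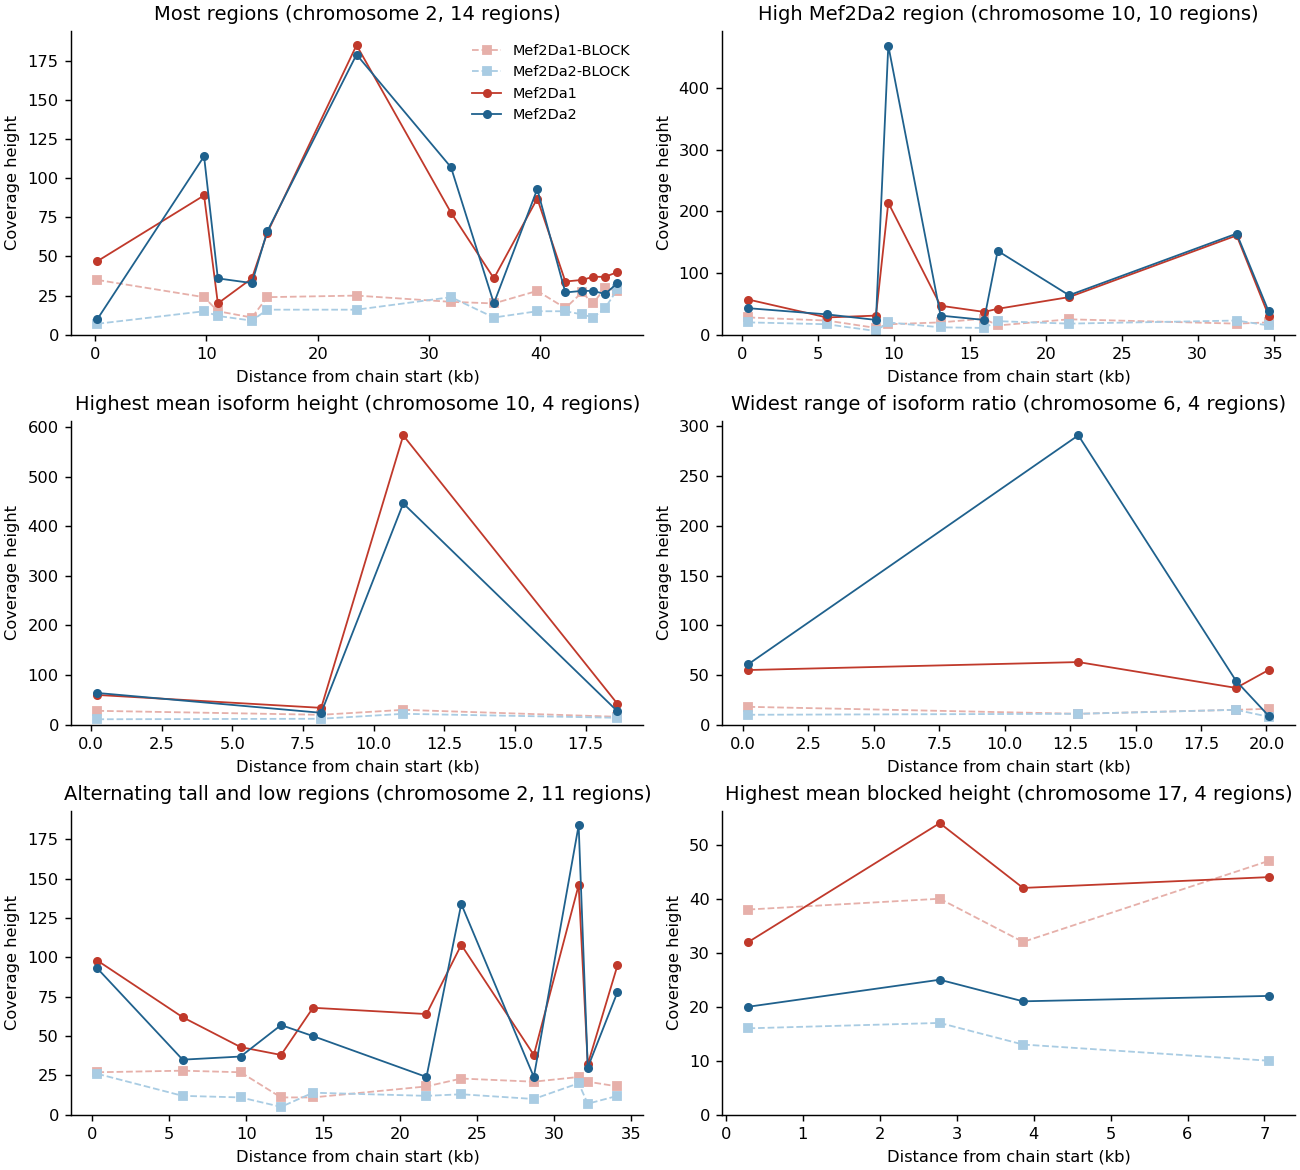
Coverage height of each region against its distance from the start of the cluster in kb, for 6 clusters, with isoforms as circles joined by solid lines and blocked controls as squares joined by dashed lines. Tall regions stand next to low ones, as in the cluster with heights up to 185 and 179, and in the cluster at the lower right Mef2Da1-BLOCK (32 to 47) is as high as Mef2Da1 (32 to 54).

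The 5 clusters with the highest mean isoform height had 4 or 5 regions, as did most clusters (318 and 150 of 627). Height did not fall with cluster size: the Mef2Da1 median was 44 in clusters of 4 and 46 in clusters of 7 or more. At chromosome 10, 85765404 to 85784306, the 4 regions measured 60, 34, 583 and 42 for Mef2Da1 and, in that order, 64, 24, 446 and 27 for Mef2Da2. The mean thus came from 1 region. At chromosome 18, 61663037 to 61671002, 2 of 4 regions were tall, with 281 and 187 for Mef2Da1 and 349 and 286 for Mef2Da2. At chromosome 8, 64381310 to 64403859, the signal was spread over the cluster. There 4 of 5 regions held peaks of both isoforms, at 101, 196, 114 and 172 for Mef2Da1 and 244, 215, 64 and 139 for Mef2Da2. At chromosome 4, 47605207 to 47617383, the tallest of 5 regions had 316 and 501, and the next 107 and 152. At chromosome 11, 102069078 to 102092028, 2 of 4 regions had 298 and 181 for Mef2Da1 and 271 and 96 for Mef2Da2. Blocked means in these 5 clusters were 14.8 to 23.5 for Mef2Da1-BLOCK and 12.6 to 14.75 for Mef2Da2-BLOCK.

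Clusters that leaned toward Mef2Da2 did so through tall regions. The lowest log2 ratio of summed heights was −1.72, at chromosome 12, 87420202 to 87445756, where 1 of 4 regions measured 45 for Mef2Da1 and 460 for Mef2Da2, and Mef2Da2 stood at 27 to 33 in the others. At chromosome 12, 53925828 to 53955911 (−1.36), 3 of 4 regions leaned the same way, with 22 and 74, 29 and 103, and 138 and 399. The clusters at chromosome 2, 61290545 to 61314524, and chromosome 6, 127936379 to 127942175, both had −1.07, with Mef2Da2 maxima of 222 and 270. At chromosome 6, 97190017 to 97210220, the ratio was −0.97. That cluster also had the widest range of single ratios, from −2.22 in a region with 63 and 291 to 2.46 in a region with 55 and 9.

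Clusters that leaned toward Mef2Da1 were mostly low. The highest log2 ratio was 1.10, at chromosome 2, 56966853 to 56976791, and this 1 had tall regions, with 183 and 95 in one and 167 and 32 in another. The next 4 had Mef2Da1 maxima of 47 to 63 and no region with peaks of both isoforms. They were at chromosome 5, 122951395 to 122960131 (1.06), chromosome 12, 112924592 to 112951797 (1.04), chromosome 4, 154595658 to 154613333 (0.96), and chromosome 13, 103685913 to 103697000 (0.94). Over the 4 regions at chromosome 12, Mef2Da2 had 22, 17, 35 and 15 against 18, 15, 28 and 16 in its blocked control. With scaling to the blocked totals these 5 ratios were 0.37 to 0.52 and the 5 toward Mef2Da2 −2.30 to −1.55.

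Opposite preferences also occurred within other clusters, though the extreme regions given here were not adjacent. At chromosome 11, 102859606 to 102878603, 6 regions gave ratios from −2.75 (heights of 12 and 85) to 1.70 (42 and 12). At chromosome 3, 95080836 to 95097893, they ran from −2.43 (29 and 158) to 1.76 (61 and 17). At chromosome 11, 94071487 to 94093986, they ran from −1.32 (71 and 176) to 2.37 (62 and 11). In each pair Mef2Da1 is given first. At the 3 highest ratios Mef2Da2-BLOCK stood at 10, 20 and 7, against Mef2Da2 heights of 12, 17 and 11. At the lowest ratios Mef2Da1-BLOCK stood at 8, 11 and 13, against Mef2Da1 heights of 12, 29 and 71. Over all clusters, adjacent regions over 2-fold in opposite directions did occur. They made up 2 of 440 adjacent pairs under 500 bp apart and 3 of 515 at 500 to 2000 bp. At 2000 to 5000 bp they were 4 of 652 and at 5000 bp or more 9 of 939. Whether these counts differ from what the shares of single regions alone would give was not tested.

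The 3 clusters with the highest blocked means differed in how far the isoforms stood above them. At chromosome 17, 31044266 to 31051687, Mef2Da1 had 32, 54, 42 and 44 and Mef2Da1-BLOCK 38, 40, 32 and 47. No region there held a listed peak. At chromosome 8, 87412123 to 87437417, 5 regions had means of 49.0 and 27.8 against 31.2 and 21.4 and a listed peak in 1 region. At chromosome 6, 89294865 to 89300782, blocked means were 31.0 and 21.5, yet all 4 regions held a listed peak, and Mef2Da1 reached 111 in one. Over all clusters, no region was at least 2-fold above its blocked control in 5 for Mef2Da1 and 4 for Mef2Da2. Every region was so in 94 clusters for Mef2Da1 and 194 for Mef2Da2, with heights unscaled. Of single regions, 66.1% in clusters and 64.7% in the whole table were so for Mef2Da1, and 76.6% and 75.0% for Mef2Da2. Whether these cluster counts differ from what those shares alone would give was not tested.

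Length and crowding marked different clusters. The longest cluster, at chromosome 8, 86827897 to 86888145, spanned 60248 bp with 8 regions, 4 of them with peaks of both isoforms. Its Mef2Da1 heights were 38 to 103 and its Mef2Da2 heights 21 to 106. The most crowded, at chromosome 12, 92826638 to 92829564, had 4 regions within 2926 bp, at 43, 48, 52 and 32 for Mef2Da1 and 44, 14, 16 and 26 for Mef2Da2. Its regions held a peak of 1 isoform or none.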

How the data were processed

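The 4 libraries were grouped by the antibody in the labels. Per the submitters' processing notes, reads were handled with BWA 0.5.9 and the build mm9; for the peak caller and for how combined regions were chosen, no source used here gives details. The authors deposited coverage signal (heights) and −log10 p for each listed peak and for each combined region. The log p columns that the authors deposited for the blocked libraries hold a few values below 0, were treated as a score and enter no result. Each table column was assigned to the sample whose peak list, or whose antibody's peak list, bears its name. The members, the comparison and the lists were chosen with earlier results of these data known. Named clusters are those with the most regions (10), the highest mean isoform height (5), the highest and lowest log2 ratio of summed heights (5 each), the widest range of single ratios (5), the highest blocked mean (3), the greatest length and the greatest crowding; single regions within them were picked after their values were seen. Ratios used a pseudocount of 1; heights were unscaled against blocked controls and scaled to table totals between isoforms. Intervals are 95% binomial. The 2-fold, 100-height and −log10 p 6 levels and the width classes were set with the data in view. Chaining and overlap code was tested on simulated positions. No fit or p-value was made, since each group had 1 library. The work ran in Python 3.11.15 with SciPy 1.17.1, pandas 2.3.3 and NumPy 2.4.6, and plots were drawn in Matplotlib 3.10.9.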

Additional observations from a re-analysis of the deposited data

How the results depend on the processing

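No paired analysis was possible because each group had 1 library. Joining rows under 500 bp apart, restricting to rows up to the median width (550 bp) and counting clusters over 2-fold under other scalings were chosen after seeing the data. The share with peaks of both isoforms was above that of lone regions in 9 of 9 alternatives and the Mef2Da1 height in 8 of 8, whereas the 2-fold shares over the blocked controls were above the lone ones in 7 of 11 for each isoform. With a gap of 5000 bp there were 1088 clustered regions, a Mef2Da2 median of 37, a log2 isoform ratio of 0.22 and a Mef2Da2 2-fold share of 72.5%, below the lone 75.0%. With 25000 bp there were 6143 regions and 31.2% had peaks of both; chains of 3 or more gave 5375 regions and chains of 6 or more 1151. With chromosome 15 kept, the 2-fold shares were 63.4% (lone 63.8%) and 74.8%. Regions with a −log10 p of 6 or more in an isoform left 943 clustered regions, by construction, with medians of 55 and 53, peaks of both in 54.6%, 2-fold shares of 79.7% and 87.3% and an isoform ratio of 0.08. A pseudocount of 5 gave 2-fold shares of 57.3% and 68.8%, total scaling 7.78% and 13.6%, and median scaling 9.77% and 18.4%; the last 4 lay below the lone shares. The isoform ratio was −0.01 with median scaling and −0.42 with blocked totals. Joined rows gave a Mef2Da2 median of 40 and peaks of both in 35.1%. Over rows up to the median width, the medians were 39 and 34 (lone 38 and 36), peaks of both 16.5% and the 2-fold shares 62.5% and 77.3% (lone 66.0% and 80.3%). Causes were not tested. The 10 clusters named for their isoform ratio kept their direction in each of 4 scalings or pseudocounts. They were picked as the most extreme ratios, and each scaling moves all ratios nearly alike, so this is no test of their direction. The counts of clusters over 2-fold toward Mef2Da1 and Mef2Da2 were 3 and 4 as reported, 0 and 11 when scaled to the median ratio, and 0 and 80 when scaled to blocked totals. Unknown depth limits every comparison between libraries.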

Other observations

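Clusters were themselves close together in a few places. In windows of 1 Mb, set after seeing the data, 299 windows held the start of 1 cluster, 90 of 2, 25 of 3, 13 of 4, 3 of 5 and 1 of 6. The window with 6 was at 80 to 81 Mb of chromosome 10 and held 48 clustered regions, with a median over clusters of 52.4 for the mean Mef2Da1 height, 51.7 for that of Mef2Da2, and 20.4 and 15.7 for the blocked controls. A window with 5 clusters at 87 to 88 Mb of chromosome 8 had 49.0 and 32.2 against 31.2 and 18.2. Its Mef2Da1-BLOCK and Mef2Da2-BLOCK medians were the highest of the 17 windows with 4 or more clusters, and its Mef2Da2 median was the lowest. The other windows with 5, at 117 to 118 Mb of chromosome 11 and 73 to 74 Mb of chromosome 8, had Mef2Da1-BLOCK medians of 20.8 and 24.4.

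Some listed peaks inside clusters were missing from the combined table. Of 1544 Mef2Da1 peaks that lay within the span of a cluster, 19 touched no combined region, and the tallest of these had a height of 210. For Mef2Da2 it was 26 of 1661, with a tallest height of 223. The share missing among all listed peaks is not given here, so these counts do not show whether clusters differ from other places. Clusters spanned 12.99 Mb in all and held 18.9% of the Mef2Da1 and 17.8% of the Mef2Da2 peaks outside chromosome 15. These shares lay near the 17.3% of regions that were clustered. Clusters are dense by the rule, so the shares are not a result about clusters.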
